A study of Homo sapiens with 6 samples.

Results

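The genes described here are 10 members of the response to bone morphogenetic proteins (BMP) and its feedback loop: ID1, ID2, ID3, ID4, SMAD6, SMAD7, BAMBI, SKIL, SMAD1 and SMAD5. They were chosen by gene symbol, with earlier results of the same comparison on these arrays in view, so every difference given for them is a description and not a test. In all, 28 of the 54613 non-control probe sets carried 1 of these symbols alone. A further probe set carried the symbols ID2B and ID2 together and was not assigned to a gene. RNA came from K562, an established human chronic myeloid leukaemia line with erythroid features, and was hybridised to Affymetrix arrays. The calactin group was 3 arrays of cells exposed to calactin, a plant cardenolide, at a labelled 0.15 mM for 12 h. The labels are the only source used here for that dose, and cardenolides usually act at far lower ones. The untreated group was 3 arrays of K562 given no agent and taken at the same time point. Both groups shared the line and its medium, and calactin was tested at this dose and time alone. As background, cardenolides inhibit the sodium pump.

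BMP ligands bind paired serine/threonine kinase receptors, which phosphorylate SMAD1 and SMAD5 so that these enter the nucleus with SMAD4. The ID genes are early targets of this route, and ID proteins are helix-loop-helix factors without a DNA-binding region that hold E proteins away from DNA. SMAD6 and SMAD7, the inhibitory SMADs, and BAMBI, a decoy receptor, restrain the signal, and SKIL encodes SnoN, a repressor of SMAD activity. In blood cells ID proteins are known to hold back differentiation by E proteins and their partner TAL1.

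ID1 and SMAD6 were the members that differed most. On the scale log2(intensity + 16), used for every difference here, ID1 was 4.48-fold lower with calactin and the main SMAD6 probe set 3.25-fold lower, while the brightest probe sets of the other 8 genes differed by 1.60-fold or less. In the ratio of mean intensities, ID1 was 4.63-fold, SMAD6 3.64-fold and SMAD7, which lies near the median signal, 1.99-fold lower. The promoter windows of ID1 and SMAD6 are shown first because these genes were low together, and those of ID2 and ID3 because these close relatives of ID1 differed far less. Each runs from 250 bases before to 50 bases after the annotated start on the gene's own strand, from RefSeq on GRCh38.p14. The windows are chr20:31605039-31605338 (+ strand) for ID1, chr15:66701986-66702285 (+) for SMAD6, chr2:8681806-8682105 (+) for ID2 and chr1:23559452-23559751 (- strand) for ID3. Capitals mark matches on either strand to a GC-rich SMAD element, a palindromic SMAD box, the SP1 box, the CCAAT box and the TATA box, whose letters are spelled out after the sequences.
ID1 promoter: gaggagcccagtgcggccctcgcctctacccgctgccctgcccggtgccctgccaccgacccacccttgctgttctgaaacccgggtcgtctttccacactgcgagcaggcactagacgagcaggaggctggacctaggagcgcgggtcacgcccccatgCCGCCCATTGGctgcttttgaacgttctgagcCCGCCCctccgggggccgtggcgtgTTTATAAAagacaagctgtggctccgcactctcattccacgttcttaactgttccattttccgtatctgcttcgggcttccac
SMAD6 promoter: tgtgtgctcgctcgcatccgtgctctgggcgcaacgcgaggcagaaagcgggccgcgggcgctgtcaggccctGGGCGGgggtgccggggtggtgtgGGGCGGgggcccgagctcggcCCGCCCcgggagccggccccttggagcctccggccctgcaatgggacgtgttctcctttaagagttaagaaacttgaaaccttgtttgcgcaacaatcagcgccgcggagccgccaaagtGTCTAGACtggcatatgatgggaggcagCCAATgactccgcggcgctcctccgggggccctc
ID2 promoter: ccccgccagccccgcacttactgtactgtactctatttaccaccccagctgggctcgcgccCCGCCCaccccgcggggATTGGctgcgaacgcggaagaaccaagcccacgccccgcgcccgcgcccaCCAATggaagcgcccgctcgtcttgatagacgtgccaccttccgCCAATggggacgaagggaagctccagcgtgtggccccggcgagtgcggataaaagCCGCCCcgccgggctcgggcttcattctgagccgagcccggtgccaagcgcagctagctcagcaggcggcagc
ID3 promoter: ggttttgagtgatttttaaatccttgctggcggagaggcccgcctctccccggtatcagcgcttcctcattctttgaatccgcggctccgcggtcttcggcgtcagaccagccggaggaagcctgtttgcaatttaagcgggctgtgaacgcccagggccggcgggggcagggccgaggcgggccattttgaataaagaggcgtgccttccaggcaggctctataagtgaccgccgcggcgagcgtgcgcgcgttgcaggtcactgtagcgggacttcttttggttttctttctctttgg

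For all 10 genes the table held 16 windows, 5 of SMAD1, 3 of SMAD7 and 1 of each other gene, and 11 motifs were searched on both strands. Matches to different motifs may overlap. The palindromic SMAD box GTCTAGAC was found in the SMAD6 window, with its first base 12 bases before the start, and in 0.202% of all 35116 windows of this length, and in no other member window. The GC-rich element GGCGCC was in 19.2% of all windows and in 5 of the 16 member windows, those of BAMBI, SKIL and SMAD5 and 2 of SMAD1. ID1 held the TATA box TATAAA 31 bases before its start, an overlapping match on the other strand, and the CCAAT box on the other strand at 84 bases. The TATA box was in 4 of the 16 member windows (of ID1, ID4, SMAD7 and SMAD1) and in 11.5% of all, and the CCAAT box, spelled CCAAT, in 7 member windows and in 34.6% of all. SMAD6 had a CCAAT box after its start, and ID2 had 3 before its start. The SP1 box GGGCGG was in 10 of the 16 member windows, with a window of every gene but ID3 and SMAD7, and in 45.0% of all. SKIL held the cyclic AMP element TGACGTCA, found in 1.85% of all windows, and ID4 held the EGR site GCGGGGGCG, found in 5.07%. Windows of SMAD1 held the AP-1 site TGACTCA, which is in 4.95% of all windows, the E-box CACGTG, in 7.26%, and the GATA site AGATAA, in 10.3%. The second EGR spelling, GCGTGGGCG, was in no member window and in 0.795% of all. The ID3 window held none of these letters. A match is a description of the window and shows no binding, and an absent match says nothing of the factor.

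Each array has 1 deposited intensity per probe set, on a linear scale, and a difference below is on log2(intensity + 16), which understates the change of dim probe sets. Array medians ran from 31.1 to 32.0 units in the calactin group and from 33.0 to 34.3 in the untreated group. Each difference is given with the standard error (SE) of limma's fit across all non-control probe sets, and a probe set is called where its Benjamini-Hochberg adjusted p is under 0.05. The replicate numbers are not used in this fit except where a replicate block is named. A probe set whose mean over the 6 arrays is under 32.5, the median of all probe sets, is called dim. Of the 28 member probe sets, 15 lay above that median and 13 were dim. Of the 9 measured erythroid markers all lay above the median signal of the 19775 genes with a probe set of their own, against 0 of 5 B-cell, 1 of 6 T-cell and 1 of 6 endothelial markers, 2 of 6 of monocytes, 3 of 6 of fibroblasts and 4 of 6 of epithelial cells, and no marker was listed at 0. Of the 9 erythroid markers, GATA1, the main erythroid factor, fell by 0.86 ± 0.17 (SE; limma adjusted p = 0.00752), TFRC and NFE2, chosen after their values were seen, were also called lower and TAL1, described further on, higher. The summed signal of the epithelial list was 10429 to 12234 in calactin arrays against 14343 to 17656 in untreated ones, and 5 of its 6 markers had a difference below 0, of which KRT18 was called. The sums of the T-cell list (1792 to 1976 against 2271 to 2674) and of the monocyte list (741.7 to 869.1 against 896.5 to 946.3) did not overlap either. CD3D, called lower (-0.45 ± 0.09, limma adjusted p = 0.00554), made up 93.6% and LYZ, not called, 84.9% of them. In contrast, 4 of 6 T-cell and 5 of 6 monocyte markers had a difference above 0 but were not called. FCGR3B (0.09 ± 0.29) stood in the monocyte list for FCGR3A, which had no probe set of its own. In the fibroblast list, whose sums overlapped, COL1A2 was called lower (-0.80 ± 0.17, limma adjusted p = 0.00959). The part of these shifts in the results below was not tested. All arrays are labelled as the K562 line, so signal of these lists does not show that cells of other types were present. In RNA from a whole culture, fewer cells that express a gene and less of its RNA per cell cannot be told apart.

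**Figure D1:**
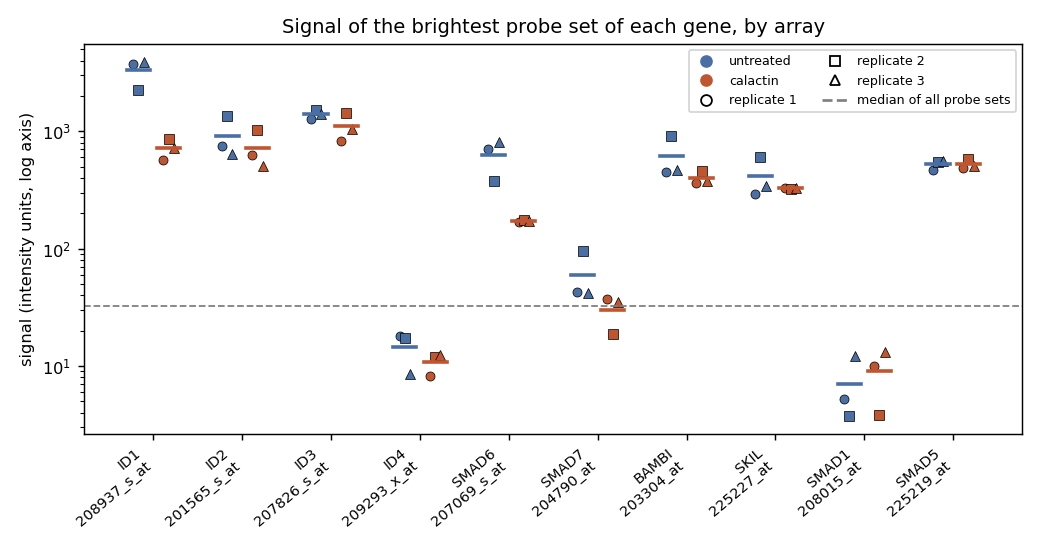
Signal of the brightest probe set of each gene in each array, in intensity units on a log axis, with untreated arrays in blue, calactin arrays in orange, 1 symbol shape per replicate number and a bar at each group mean (n = 3). Every calactin array lay below every untreated array for ID1, SMAD6 and SMAD7. Levels of different probe sets are not comparable with each other, and the dashed line is the median of all probe sets.

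Among the ID genes, the ID1 probe set 208937_s_at read 567.1, 858.5 and 719.0 units in calactin replicates 1, 2 and 3. It read 3775, 2251 and 3912 in the untreated arrays. The groups did not overlap, and the lowest untreated array, replicate 2, still lay above the highest calactin array, also replicate 2. The means were 714.9 ± 145.7 and 3313 ± 922.0 (SD, n = 3 each), and the difference was -2.16 ± 0.22 (log2, SE). ID1 is the family member most often used as a readout of BMP receptor activity. Its difference lay between -2.56 and -1.63 over the other settings.

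ID2 and ID3 did not share the size of this drop. ID2 probe set 201565_s_at read 624.9, 1021 and 507.1 units with calactin and 752.7, 1357 and 640.8 without. The 2 groups overlapped, since replicate 2 was the highest array of each group and calactin replicate 2 exceeded untreated replicates 1 and 3. Within each replicate number the calactin array was the lower, by 0.26, 0.40 and 0.33 on the log2 scale. The overall difference of ID2 was -0.33 ± 0.31, and it moved to -0.015 without untreated replicate 2, -0.12 without calactin replicate 3, -0.55 without untreated replicate 3 and -0.61 without calactin replicate 2. These fits ignore the replicate numbers, so each array left out breaks a pair. With the replicate block the SE of 201565_s_at was 0.07, and it was called lower (limma adjusted p = 0.0123). The other ID2 probe set, 201566_x_at, whose suffix marks probes that may bind other transcripts, gave -0.34 ± 0.26, or -0.05 without untreated replicate 2. It was not called with the replicate block (limma adjusted p = 0.0519). The probe set shared with the pseudogene ID2B, 213931_at, read 56.7, 60.2 and 35.7 units with calactin and 28.8, 37.8 and 29.5 without, so that it differed in the opposite direction, at 0.46 ± 0.21. ID3 probe set 207826_s_at read 819.8, 1428 and 1046 units with calactin and 1280, 1514 and 1398 without. The ID3 groups overlapped through calactin replicate 2, and the difference was -0.38 ± 0.18. Without calactin replicate 2 it was -0.58, which was called lower, and without calactin replicate 1 it was -0.19. All 5 probe sets of ID4, which is mostly known from the nervous system, were dim, with values from 1.0 to 23.7 units in any array and overlapping groups. No direction was read from ID4.

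The inhibitory SMADs showed 1 clear difference. SMAD6 probe set 207069_s_at read 169.0, 176.6 and 173.0 units in calactin replicates 1, 2 and 3 and 711.9, 373.1 and 803.6 in the untreated arrays. All calactin arrays lay close together and below all untreated arrays, of which replicate 2 was the lowest, as for ID1. The means were 172.9 ± 3.83 and 629.5 ± 226.8 (SD, n = 3 each), and the difference was -1.70 ± 0.25. It lay between -2.05 and -1.17 over the other settings. The other 3 SMAD6 probe sets, at or near the median signal or dim, did not share it. Probe set 209886_s_at read 27.8, 36.3 and 52.0 units with calactin and 29.4, 31.6 and 28.3 without, at 0.23 ± 0.21, and 213565_s_at gave 0.16 ± 0.25. The dim 209887_at read 12.8, 16.6 and 12.3 units against 1.45, 4.33 and 6.21 in untreated arrays and differed by 0.58 ± 0.15. The call of 209887_at was lost without any array other than untreated replicate 3 (its difference was then 0.49 to 0.62).

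SMAD7, which blocks both the BMP and the TGF-beta receptor, was measured by 204790_at alone. It read 36.8, 18.7 and 34.8 units with calactin and 43.0, 94.6 and 41.9 without. The groups did not overlap, but in replicates 1 and 3 the calactin array lay only just below the untreated one. The difference of -0.67 ± 0.30 was -0.37 without untreated replicate 2 and -0.18 in replicates 1 and 3 alone. BAMBI probe set 203304_at read 358.4, 459.5 and 377.4 units with calactin and 448.4, 917.2 and 467.5 without, at -0.53 ± 0.25. The BAMBI groups overlapped through calactin replicate 2, and without untreated replicate 2 the difference was -0.20. For SKIL, 225227_at read 330.2, 323.6 and 330.4 units with calactin and 293.3, 602.2 and 340.5 without. Its difference of -0.25 ± 0.23 rested on untreated replicate 2, since it was 0.05 without that array. Of the other 4 SKIL probe sets, 217591_at read 31.2 to 35.7 units with calactin and 29.9 to 48.9 without, and the other 3 were dim and went both ways, at 0.36, -0.55 and 0.24.

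Among the signal-carrying SMADs, SMAD5 had 5 probe sets, all above the median signal. Its brightest, 225219_at, read 480.9, 584.8 and 506.9 units with calactin and 462.8, 543.4 and 557.0 without, at 0.01 ± 0.11, and 225223_at gave -0.19 ± 0.10. The other 3 were higher with calactin, at 0.35 ± 0.14 for 235451_at, 0.52 ± 0.15 for 205187_at and 0.21 ± 0.13 for 205188_s_at. Of these, 205187_at read 173.6, 239.7 and 220.7 units with calactin and 128.5, 159.5 and 137.8 without, and its groups did not overlap. It was not called in the fit used here but was under quantile normalization (0.72), median centring (0.58), the filter at the median signal and without calactin replicate 1 (0.64), and 235451_at was called under quantile normalization (0.54). Of the 5 SMAD5 probe sets, 4 thus had a difference above 0, that of 225219_at being close to 0. The remaining one, 225223_at, was below 0 and not called, so the probe sets did not agree on a change. The 3 probe sets of SMAD1 were all dim, at 1.0 to 13.04 units in any array with overlapping groups, and give no direction for this gene.

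**Figure D2:**
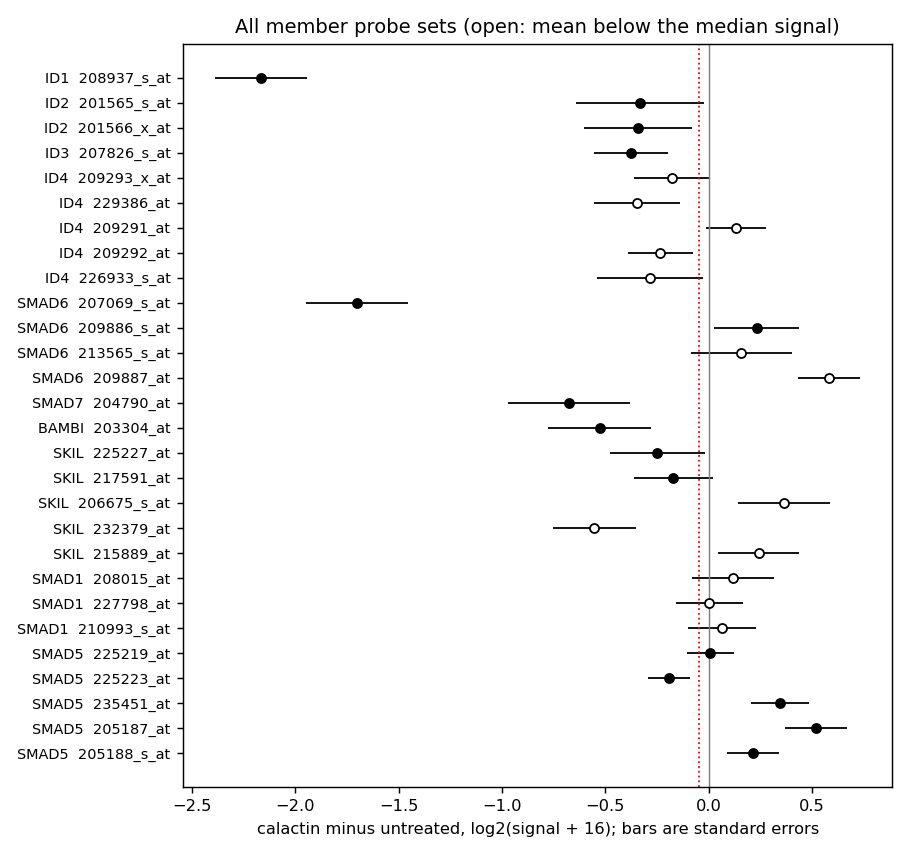
Difference between calactin and untreated arrays for each of the 28 probe sets, on log2(signal + 16), with bars for the standard error of limma's fit (n = 3 each). Filled points are probe sets above the median signal, open points are dim, and the dotted line is the median of all probe sets at -0.05. ID1 at -2.16 and SMAD6 207069_s_at at -1.70 stand apart from the other filled points, which run from -0.67 to 0.52.

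Of the 28 member probe sets, 2 were called lower, those of ID1 and SMAD6, where 10.3% of all probe sets were called lower. The dim SMAD6 probe set 209887_at was called higher, where 3.68% of all were. The groups did not overlap for 4 member probe sets that were lower, against 19.0% of all probe sets, and for 3 that were higher, against 9.36%. Since the members were chosen with this comparison in view, nothing is read from these counts. With the replicate number as a block, which takes up differences that a calactin and an untreated array of 1 number share, 5 member probe sets were called lower and 3 higher, against 12.9% and 5.24% of all. Those added were ID2 201565_s_at, ID3 and BAMBI among the lower and SMAD5 235451_at and 205187_at among the higher, and the SE of ID2 was then 0.07. Scaling to the poly-A spikes, control RNAs added before labelling, moved the median of all probe sets from -0.05 to 0.49. On that scale ID1 was at -1.63, SMAD6 207069_s_at at -1.17 and SMAD7 at -0.14, below the median of all and with the same sign. ID2 201565_s_at at 0.20, ID3 at 0.16, SKIL 225227_at at 0.29 and BAMBI at 0.006 were still below that median but changed sign. SMAD5 225219_at was at 0.54 there.

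The place of the replicate 2 arrays within their groups differed between these genes. Among the 8 genes with a probe set above the median signal, judged by their brightest probe set, untreated replicate 2 was the highest untreated array for 5 (ID2, ID3, SMAD7, BAMBI and SKIL) and the lowest for ID1 and SMAD6. Over all 27305 probe sets above the median it was the highest for 37.5% and the lowest for 35.2%. Calactin replicate 2 was the highest calactin array for 6 of the 8 genes and the lowest for SMAD7 and SKIL, against 37.0% and 30.6% of all those probe sets. With 3 arrays in a group, each array is the highest or the lowest for most probe sets, so nothing is read from these counts. Within the replicate numbers 1, 2 and 3, ID1 differed by -2.70, -1.37 and -2.42 and SMAD6 by -1.98, -1.01 and -2.12, so that number 2 gave the smallest drop of both. Number 2 also gave the smallest drop of ID3, at -0.63, -0.08 and -0.41. The order was turned for SMAD7, at -0.16, -1.67 and -0.19, for BAMBI, at -0.31, -0.97 and -0.30, and for SKIL, at 0.16, -0.86 and -0.04. For ID2, at -0.26, -0.40 and -0.33, number 2 gave the largest drop by a small margin. The cause of these differences between replicate numbers was not tested. In replicates 1 and 3 alone, ID1 was at -2.56 and SMAD6 207069_s_at at -2.05, and both kept their call.

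**Figure D3:**
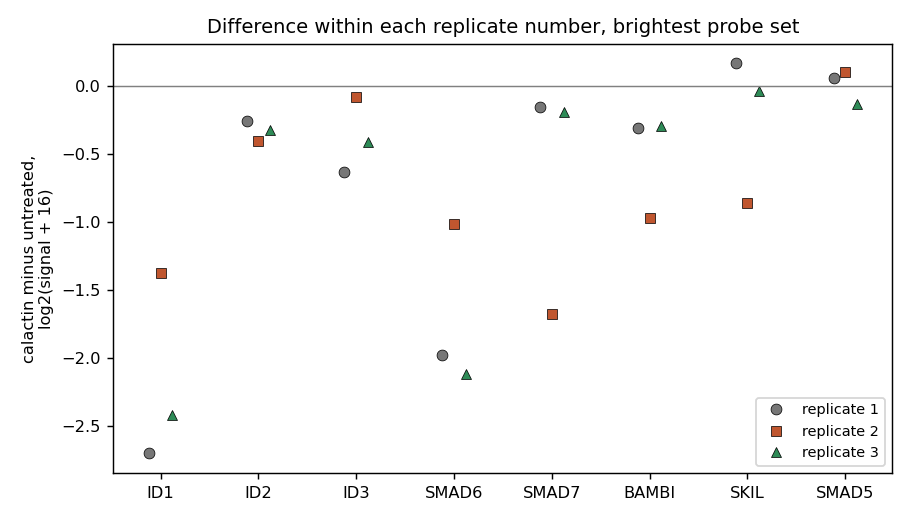
Difference between the calactin and the untreated array of the same replicate number, on log2(signal + 16), for the brightest probe set of the 8 genes with a probe set above the median signal. Replicate 2 gave the smallest drop of ID1 (-1.37), SMAD6 (-1.01) and ID3 (-0.08) and the largest of SMAD7 (-1.67), BAMBI (-0.97), SKIL (-0.86) and ID2 (-0.40).

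The genes whose pattern over the 6 arrays was most like that of ID1, among 12545 genes above the median signal, were DNAAF5, CBX2 and BRD3 (Pearson r of the log2 values = 0.999, 0.998 and 0.998). Those most like SMAD6 were HMGB3P1, DCTPP1 and LRATD1 (r = 0.999, 0.999 and 0.998). The arrays fall into 2 groups, so these values reflect in part the shared difference between the groups. The genes were picked for their likeness over these same 6 arrays, so any pattern they share with ID1 or SMAD6 follows from that choice. CBX2, for example, read 91.8, 122.6 and 115.5 units with calactin and 313.0, 215.7 and 310.1 without, with untreated replicate 2 the lowest of its group as for ID1. DCTPP1 read 1141, 1109 and 1135 units with calactin and 2175, 1631 and 2321 without, again with untreated replicate 2 lowest.

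The rest of the BMP and TGF-beta route was followed through 7 lists holding 132 genes that are not members, tested gene by gene with the brightest probe set of each. Of the 122 measured, 14 rose and 18 fell. That is 11.5% and 14.8%, against 4.93% and 16.5% of all 19775 genes. Their median difference was -0.03, beside -0.06 for all genes. With the replicate block, 20 were called higher and 23 lower, against 7.09% and 20.2% of all genes. The block added 11 calls and ended 0, and those it added to genes named here are given with them. The calls of GDF15, INHBC, ACVR2B, TCF12 and BHLHE40, described below, were lost in some fits with an array left out, which break a pair. With the block and all arrays these genes kept their calls (limma adjusted p = 0.00928, 0.0242, 0.00544, 0.0212 and 9.49e-04). The balance moved with the scale, as it did over all genes. It was 20 higher and 10 lower under quantile normalization (8.38% and 12.1% of all genes), 14 and 7 under hybridisation spike scaling (3.05% and 7.40%) and 63 and 4 under poly-A spike scaling with the replicate block (47.5% and 5.15%). Under poly-A spike scaling with the block, SMAD3, FOXH1, TGIF1 and DLX2, described below, were no longer called, at -0.24, -0.33, -0.16 and -0.40. The number that fell was 10 without calactin replicate 2 and also 10 without untreated replicate 3, where 12.8% and 12.1% of all genes were called lower.

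Of 29 ligand genes, 2 rose and 1 fell, with a median of -0.006. INHBE, which encodes an activin subunit, read 672.8, 699.8 and 803.3 units with calactin and 234.0, 384.6 and 311.2 without, and rose by 1.21 ± 0.17 (limma adjusted p = 0.00115). GDF15, a stress-induced member of the family, rose by 0.90 ± 0.21 (adjusted p = 0.0147). The GDF15 call was lost when calactin replicate 1 or 2 was left out (0.88 and 0.85) or when its probe sets were averaged (0.42), and a probe set of unshared sequence gave 0.04. Such a probe set, here and below, is the gene's brightest with no _s, _x or _a suffix in its name. It was picked with no check of its sequence and no lower limit of signal, so it may be dim. INHBC, another activin subunit, was at -0.49 ± 0.14 (adjusted p = 0.0337), a call that was lost when any array other than untreated replicate 3 was left out (-0.41 to -0.52) and that turned to 0.047 under poly-A spike scaling. It was not called either under quantile normalization (-0.29), median centring (-0.43) or hybridisation spike scaling (-0.39), with its probe sets averaged (-0.28) or by a probe set of unshared sequence (-0.06). BMP2, BMP4 and BMP6 were below the median signal of all genes, at 5.13 to 28.1, 1.14 to 21.2 and 32.9 to 74.5 units. TGFB1 read 1405 to 2138 units with calactin and 1451 to 2498 without, at -0.12 ± 0.21. Of 19 extracellular antagonists and binding proteins, limma called 0, and 3 had an unadjusted p under 0.05, all lower, with a median of -0.07 for the list. With the replicate block 3 were called lower, SOSTDC1, LTBP3 and LTBP4 (-0.47, -0.54 and -0.49).

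Of 16 receptor and co-receptor genes, 3 rose and 1 fell, with a median of 0.17. TGFBR3, or betaglycan, which presents ligands to the signalling receptors, read 1771, 1666 and 1760 units with calactin and 933.8, 906.3 and 1058 without, and rose by 0.83 ± 0.09 (adjusted p = 2.74e-04). AMHR2, the receptor of anti-Mullerian hormone, rose by 0.77 ± 0.12 (adjusted p = 0.00229), and ACVR1B, a type I activin receptor, by 0.58 ± 0.12 (adjusted p = 0.00798), which was not called when its probe sets were averaged (0.26). ACVR2B, a type II activin receptor, was at -0.42 ± 0.12 (adjusted p = 0.0417), which turned to 0.11 under poly-A spike scaling and whose call was lost when any array other than untreated replicate 1 was left out (-0.33 to -0.49). Nor was ACVR2B called under quantile normalization (-0.25), median centring (-0.36) or hybridisation spike scaling (-0.32), by eBayes without a trend, or with its probe sets averaged (-0.08). The BMP receptor genes ACVR1 and BMPR2 were not called without the block, at 0.60 ± 0.22 and 0.49 ± 0.16 (adjusted p = 0.0876 and 0.0605). Within replicate numbers 1, 2 and 3 ACVR1 was higher by 0.59, 0.64 and 0.56 and BMPR2 by 0.65, 0.44 and 0.37, and with the replicate block both were called higher (limma adjusted p = 7.30e-04 and 0.0471).

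Of 10 other SMADs and SMAD partners, 2 rose and 2 fell, with a median of 0.02. SMAD3, which carries the TGF-beta signal, read 191.5, 253.8 and 211.6 units with calactin and 387.0, 383.0 and 377.8 without, and fell by 0.77 ± 0.13 (adjusted p = 0.00253). SMAD2, its closest relative, rose by 0.56 ± 0.10 (adjusted p = 0.00404), though averaging its probe sets gave 0.16, not called. FOXH1, a DNA-binding partner of SMAD2, fell by 0.86 ± 0.14 (adjusted p = 0.00267; -0.50 and not called by a probe set of unshared sequence), and CREBBP, a coactivator, rose by 0.88 ± 0.12 (adjusted p = 0.00118). The common partner SMAD4 was at 0.24 ± 0.10 (adjusted p = 0.157), and was called higher with the replicate block (adjusted p = 0.0486), and SMAD9, the third BMP-activated SMAD, read 3.51 to 15.0 units, below the median signal of all genes.

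Of 20 genes for intracellular inhibitors and for enzymes that act on SMADs, 4 rose and 6 fell, with a median of -0.07. RNF111, or Arkadia, a ubiquitin ligase that removes SMAD7 and SKIL protein, read 663.7, 698.7 and 827.5 units with calactin and 301.7, 417.6 and 356.5 without, and rose by 0.999 ± 0.139 (adjusted p = 0.00114). PPM1A, a phosphatase that acts on SMADs, rose by 0.83 ± 0.09 (adjusted p = 3.34e-04) by its brightest probe set. Its probe set of unshared sequence gave -0.44 and was called lower (limma adjusted p = 0.0343), so no direction is read for this gene. CTDSP1, another phosphatase, rose by 0.48 ± 0.09 (adjusted p = 0.00425), and TGIF1, a corepressor of SMADs, fell by 0.69 ± 0.10 (adjusted p = 0.00148). TGIF1 was not called when its probe sets were averaged (-0.30) or by a probe set of unshared sequence (-0.50), and neither TGIF1 nor CTDSP1 under hybridisation spike scaling (-0.59 and 0.58).

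Among 18 other target genes of BMP or TGF-beta, limma called 7 lower and 0 higher, beside 16.5% and 4.93% of all genes, and at an unadjusted p under 0.05 there were also 0 higher. The median of the list was -0.06. With the replicate block KLF10, an early TGF-beta target, was called higher (0.34). Of the 18 genes, 10 lay above the median signal of all genes, and 6 of these 10 were called lower, with a median difference of -0.50. Among all genes above that median, 29.6% were called lower, with a median of -0.14. The list was chosen with earlier results of these data known, so these counts are a description. JUNB, an AP-1 subunit that answers many signals, read 49.0, 146.5 and 135.1 units with calactin and 688.1, 588.7 and 734.7 without, and fell by 2.55 ± 0.31 (adjusted p = 6.25e-04). MSX1, a homeobox gene, fell by 1.47 ± 0.14 (adjusted p = 2.05e-04), but its probe set of unshared sequence gave 0.29, not called. DLX2, another homeobox gene, fell by 0.94 ± 0.16 (adjusted p = 0.00292). RUNX2, a factor of bone formation, read 13.1 to 18.8 units with calactin and 45.1 to 86.8 without, and fell by 1.35 ± 0.22 (adjusted p = 0.00223), though it lay below the median signal of all genes and was not called when its probe sets were averaged (-0.14).

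Of 10 helix-loop-helix factors, which include the E proteins that ID proteins bind, 3 rose and 1 fell, with a median of -0.06. TAL1 read 3925, 4453 and 3823 units with calactin and 1918, 2444 and 2080 without, and rose by 0.92 ± 0.10 (limma adjusted p = 3.87e-04), though a probe set of unshared sequence gave -0.030. TCF4, an E protein, rose by 0.74 ± 0.12 (adjusted p = 0.00220), and TCF12, another, by 0.32 ± 0.09 (adjusted p = 0.0341), a call lost when any array other than untreated replicate 3 was left out (0.25 to 0.36), under hybridisation spike scaling (0.42) and when its probe sets were averaged (0.02). The E protein gene TCF3 was not called, at -0.13 ± 0.10 (adjusted p = 0.458). BHLHE40, a repressor that answers stress and the circadian clock, fell by 0.98 ± 0.25 (adjusted p = 0.0204), which was not called (-1.05, -0.90 and -0.94) when calactin replicate 3 or an untreated array numbered 1 or 3 was left out.

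**Figure D4:**
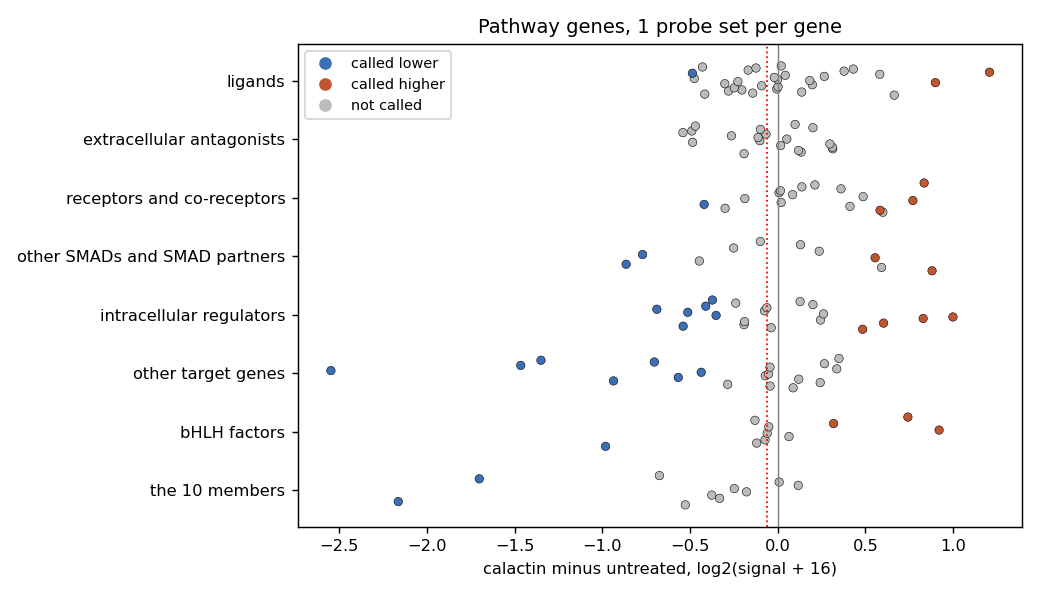
Difference between calactin and untreated arrays on log2(signal + 16) for 122 pathway genes in 7 lists and for the 10 members, 1 point per gene, with the median of all genes as a dotted line. Blue points were called lower, orange higher and grey not called. JUNB at -2.55 is the lowest point, and ID1 at -2.16 and SMAD6 at -1.70 are the lowest of the members.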

How the data were processed

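The authors' deposited table holds 1-colour probe set intensities on a linear scale for 6 arrays. Per the labels' protocols, biotinylated cRNA was made from 8 ug of total RNA. Their summary method, background correction and scaling were not stated in the labels or headers used here. Probe sets were named from the platform annotation: 41091 carried 1 symbol, 1801 several and 11721 none, and 62 were controls. Members and lists were chosen with earlier results of these data known. R 4.3.3 with limma 3.58.1 (lmFit, then eBayes with its trend option) was fitted two-sided to log2(intensity + 16), with Benjamini-Hochberg adjustment and a threshold of 0.05, over all 54613 probe sets for the members and over 19775 genes for the lists, each gene by the probe set of highest mean log2 signal. The fits were tested on simulated data. No further normalization was applied.

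From each list, up to 4 called genes of smallest p were to be named, with all members, GATA1, TAL1 and the 3 genes most like each of the 2 members that differed most. BMP2, BMP4, BMP6, TGFB1, ACVR1, BMPR2, SMAD4, SMAD9 and TCF3, with the genes TFRC, NFE2, KRT18, CD3D, LYZ, FCGR3B and COL1A2 and those that the block added to short counts, were named after their values were seen. Of 132 listed genes, 10 matched no probe set of a lone symbol and were not analysed here. Alternatives in scaling were quantile normalization, median centring, spike scalings and pseudocounts of 1 and 64. Others were a filter at the median signal, eBayes without a trend, the replicate block and each array left out. Other choices of a gene's probe set were used for the lists alone. Replicates 1 and 3 alone were added after seeing the data. Replicate numbers come from the sample titles. The deviation from the group mean correlated between same-numbered arrays at 0.415, 0.325 and 0.240 over 27305 probe sets. The replicate block therefore took the numbers as pairing the arrays. The main fit and the fits with an array left out did not use this pairing. Their SE thus include differences between replicate numbers, and leaving out 1 array breaks a pair. The labels call the replicates biological but name no separate cultures, so p-values measure the spread between these samples, which may be technical. The number of arrays limits the precision. Plots were drawn with matplotlib 3.10.9.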

Additional observations from a re-analysis of the deposited data

How the results depend on the processing

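The alternatives for members were fitted per probe set, so other choices of a gene's probe set were not among them. The 3 SMAD6 probe sets other than 207069_s_at did not fall, at 0.23, 0.16 and 0.58. ID1 208937_s_at and SMAD6 207069_s_at kept their direction in all 17 alternatives and their call in 16, the exception being poly-A spike scaling without the replicate block. Under that setting limma called 0 of all probe sets, so its 0 member probe sets and 0 pathway genes called in either direction (and 0 at an unadjusted p under 0.05) say nothing of stability; the poly-A spikes of replicate 3 lay far below those of the other arrays. With the replicate block, 5 member probe sets were called lower and 3 higher (12.9% and 5.24% of all probe sets). The count of member probe sets called higher was 3 under quantile normalization, 2 under median centring and 13 under poly-A spike scaling with the replicate block. Of all probe sets, 6.19%, 4.74% and 45.2% were called higher there. The count was 0 under hybridisation spike scaling, with a pseudocount of 1 and in replicates 1 and 3 alone (2, 3 and 3 at an unadjusted p under 0.05). Of all probe sets, 2.38%, 3.68% and 2.22% were called higher there. With an array left out the count ran from 0 to 1, against 2.24% to 3.57% of all probe sets.

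Pathway genes called lower numbered 10 under quantile normalization, 7 under hybridisation spike scaling and 4 under poly-A spike scaling with the replicate block (12.1%, 7.40% and 5.15% of all genes). They numbered 11 when a gene's probe sets were averaged (14.4% of all genes) and 10 to 16 with an array left out (12.1% to 15.3%). Under poly-A spike scaling with the replicate block 63 were called higher, as were 47.5% of all genes. The sign turned for SMAD5 225223_at (0.34), INHBC (0.047) and ACVR2B (0.11) under poly-A spike scaling. It also turned for PPM1A (-0.44, called lower), MSX1 (0.29) and TAL1 (-0.030) where a probe set of unshared sequence stood for the gene. The cause was not tested. The replicate block ended 0 calls of the 122 pathway genes and added 11, among them ACVR1, BMPR2 and SMAD4. Dim probe sets, among them all of ID4 and SMAD1, limit what can be said of their genes.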
